A study of Mus musculus with 12 samples.

Results

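The genes described here are 10 regulators of the p53 and RB cell cycle checkpoints, taken by name: the CDK inhibitor genes Cdkn2a, Cdkn2b, Cdkn1a and Cdkn1b, the p53 gene Trp53 and its inhibitor Mdm2, the retinoblastoma gene Rb1, the kinase genes Cdk4 and Cdk6, and the cyclin gene Ccnd1. All 10 were found among the 55487 gene identifiers of the count table, and all 10 passed the filter on low counts, which left 16225 genes for testing. They were measured by bulk RNA-seq in 12 mouse melanoma tumors. The 6 wild-type tumors had the genotype BrafCA;Cdkn2af/f and the 6 Arf6-null tumors BrafCA;Cdkn2af/f;Arf6f/f, so wild-type refers to Arf6, and every tumor of both groups carries the BrafCA allele and floxed Cdkn2a. The labels do not name any Cre that recombined these alleles, the exons that are floxed, or the age of the animals, and no tumor with an unfloxed Cdkn2a is among the samples. Whether each tumor is from an animal of its own is not labelled either, and the p-values therefore reflect the scatter among these libraries, which may be technical in part.

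The p53 and RB checkpoints restrain entry into S phase. Cyclin D1 with CDK4 or CDK6 phosphorylates the RB protein, which releases E2F factors that drive DNA replication genes. The INK4 proteins p16 (from Cdkn2a) and p15 (from Cdkn2b) block CDK4 and CDK6, and the CIP/KIP proteins p21 (Cdkn1a) and p27 (Cdkn1b) bind cyclin and CDK complexes more broadly. Cdkn2a also encodes the ARF protein in another reading frame. ARF, which is unrelated to the Arf6 GTPase in spite of the name, inhibits MDM2, the ubiquitin ligase that degrades p53, and p53 in turn activates Cdkn1a and Mdm2. In melanoma a mutant BRAF kinase is commonly joined by loss of CDKN2A, which lifts the block on cell division in BRAF-mutant melanocytes.

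Promoter sequences are shown for Cdkn2a, Cdkn1a and Cdk4, and no relation of these sequences to the RNA levels was tested. RefSeq windows from 250 bases before to 50 bases after a transcription start (build GRCm38.p6) were found for 8 of the 10 members, 10 windows in all. Rb1 and Ccnd1 had no entry. Cdkn2a is shown at both of its starts because the table sums their transcripts, the start further upstream belonging to ARF and the other to p16. Capitals mark an E2F word (TTTCCCGC, TTTCGCGC, TTTGCCGC or TTTGGCGC on either strand, each match counted by its first base, so that words may overlap). The upstream start of Cdkn1a is shown for its match to the p53 core, here CATG, then any 6 bases, then CATG, and Cdk4 for the E-box CACGTG, the word bound by MYC and its relatives. Both of these words read alike on either strand, and capitals mark them.
Cdkn2a ARF start, chr4:89294570-89294869, minus strand: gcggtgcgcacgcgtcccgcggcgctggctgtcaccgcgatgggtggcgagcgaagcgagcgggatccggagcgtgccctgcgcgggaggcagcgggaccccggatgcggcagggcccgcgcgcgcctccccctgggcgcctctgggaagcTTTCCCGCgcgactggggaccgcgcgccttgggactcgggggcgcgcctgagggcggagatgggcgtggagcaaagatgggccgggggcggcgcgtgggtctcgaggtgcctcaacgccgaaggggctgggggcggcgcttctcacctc
Cdkn2a p16 start, chr4:89282143-89282442, minus strand: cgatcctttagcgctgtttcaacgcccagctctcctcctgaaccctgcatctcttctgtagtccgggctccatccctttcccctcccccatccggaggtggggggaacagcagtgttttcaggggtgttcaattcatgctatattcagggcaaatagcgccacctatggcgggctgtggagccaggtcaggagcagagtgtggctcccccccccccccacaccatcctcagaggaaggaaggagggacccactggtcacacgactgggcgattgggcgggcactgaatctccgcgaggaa
Cdkn1a upstream start, chr17:29090729-29091028, plus strand: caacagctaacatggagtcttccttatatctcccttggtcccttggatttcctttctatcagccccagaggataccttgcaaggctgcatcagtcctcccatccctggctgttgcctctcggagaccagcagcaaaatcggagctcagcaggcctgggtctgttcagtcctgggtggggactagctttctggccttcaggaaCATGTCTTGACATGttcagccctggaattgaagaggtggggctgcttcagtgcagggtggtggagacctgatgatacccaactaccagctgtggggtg
Cdk4 start, chr10:127063285-127063584, plus strand: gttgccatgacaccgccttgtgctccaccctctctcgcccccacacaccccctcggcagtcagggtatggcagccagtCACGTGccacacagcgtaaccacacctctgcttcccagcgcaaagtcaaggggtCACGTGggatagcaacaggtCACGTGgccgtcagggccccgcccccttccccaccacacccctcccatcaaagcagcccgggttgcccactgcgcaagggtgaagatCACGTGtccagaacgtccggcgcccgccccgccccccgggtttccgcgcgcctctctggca

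Of the 10 member windows, 1 held an E2F word, the ARF start of Cdkn2a, at 99 bases before the start. The p16 start held none. Over all 32851 windows of the mouse table, in which a gene can have several starts, 744 (2.26%) held an E2F word. The p53 core was present in 1 member window and in 234 of all windows (0.712%). In Cdkn1a it lies at chr17:29090931-29090944, its first base 48 bases before the upstream start and 2838 bases before the second start of the gene, whose own window held no match. The E-box was present in 3 member windows, those of Cdk4, Cdk6 and Trp53, against 7.15% of all windows. Cdk4 held 4 copies, a number that 8 of the 32851 windows (0.0244%) reached. These matches describe letters in the windows, and binding was not measured.

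Library totals ran from 22211738 to 30326419 counts in wild-type and from 21007954 to 45688253 in Arf6-null tumors. Arf6 itself was at 84.2 to 147 CPM (reads per 1e6 of the scaled library total) in the wild-type and 12.2 to 22.5 CPM in the Arf6-null libraries, without overlap (log2 fold change -2.60, edgeR adjusted p = 0.000101). Of 10 melanocyte markers 5 (Mlana, Tyr, Tyrp1, Dct and Slc45a2) had at most 10 counts in every library, so these pigment genes were at or near 0 in tumors labelled as melanoma. Other markers of the list did have reads. Mean levels in wild-type and Arf6-null tumors were 18.6 and 18.2 CPM for Mitf, 39.0 and 44.3 CPM for Gpnmb, and 15.4 and 5.28 CPM for Kit. Pmel (0.920 and 0.971 CPM) and Sox10 (0.437 and 0.146 CPM) were low. The summed level of 19 skeletal muscle markers was 1847 to 4215 CPM in wild-type replicates 3, 4 and 5, 44.8 to 307 CPM in the other wild-type and 16.5 to 103 CPM in the Arf6-null libraries. That of 12 fibroblast markers was 8065 to 24781 CPM in wild-type and 2578 to 16618 CPM in Arf6-null tumors. In such bulk samples fewer cells of a type and less RNA per cell cannot be told apart, and the levels below are averages over tumor and host cells. The sum of 4 Y-linked genes was 0 to 0.261 CPM in wild-type replicates 3, 5 and 6 and 0.444 CPM in Arf6-null replicate 6, so 3 wild-type libraries and 1 Arf6-null library were near 0. It was intermediate in wild-type replicate 1, at 22.3 CPM. Wild-type replicates 2 and 4 had 203 and 248 CPM, and the other Arf6-null libraries 148 to 218 CPM. The genotypes also differ in library numbering (1 to 6 against 19 to 24), so a preparation round, if there was more than a single one, cannot be told apart from genotype. Tumor numbers differ as well, from 5526 to 7657 in wild-type replicates 1 to 4 and 6 and from 19836 to 20570 in Arf6-null tumors. Wild-type replicate 5 has the number 20681.

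No checkpoint gene differed between the genotypes beyond the spread between tumors. Of the 10 genes 0 passed at an edgeR adjusted p under 0.05, where 1.15% of all 16225 tested genes did (0.586% higher and 0.561% lower in Arf6-null tumors), and 0 had an unadjusted p under 0.05, against 23.4% of all genes. DESeq2 and limma-voom also called 0 of the 10. DESeq2 called 6.64% of all 33373 genes with any count, and limma-voom 6.14% of the 16225 tested genes. The DESeq2 base includes genes that it left without an adjusted p, so its share among adjusted genes was higher. The CPM ranges of the genotypes overlapped for every member, where 2.36% of all tested genes had ranges that did not overlap. The smallest adjusted p was that of Mdm2 and Cdkn1a, 0.29 for each. A miss of the threshold does not show that levels were equal, and the 95% intervals give what the data allow. They were narrowest for Cdk6 (0.785 to 1.14-fold, Arf6-null over wild type), Trp53 (0.814 to 1.21-fold) and Rb1 (0.768 to 1.19-fold) and widest for Cdkn1a (0.907 to 3.08-fold).

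**Figure D1:**
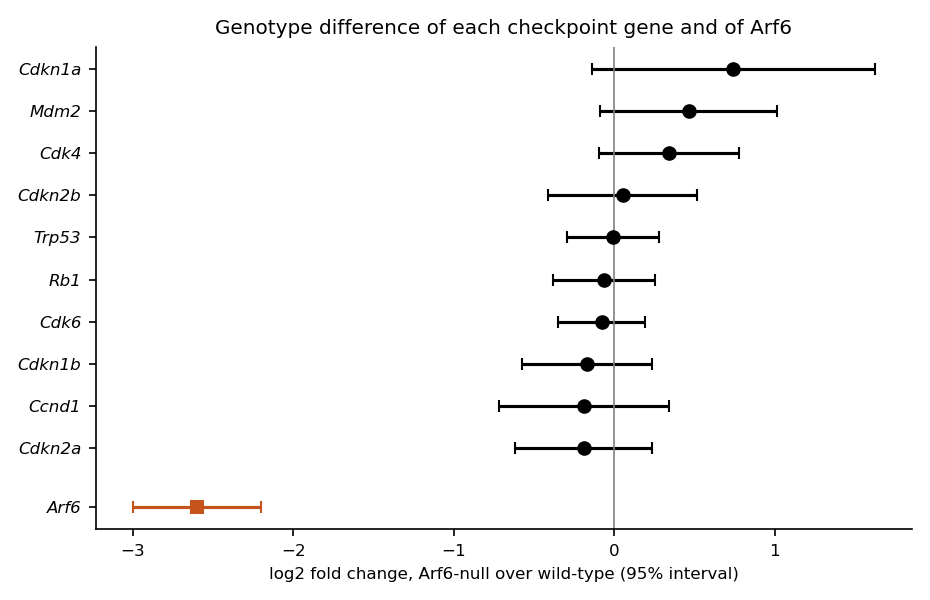
Points are edgeR log2 fold changes of Arf6-null over wild-type tumors (n = 6 each) for each checkpoint gene, with Arf6 as the targeted gene below them, and bars are 95% intervals. Every checkpoint interval includes 0, whereas that of Arf6 runs from -3.00 to -2.20.

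Both genes of the INK4 locus were transcribed in every tumor. Cdkn2a lies at chr4:89274471-89294653 and Cdkn2b, which encodes p15, 11645 bases beyond its ARF end at chr4:89306299-89311039, both on the minus strand of GRCm38. Cdkn2a was at 21.7, 14.6, 21.3, 26.6, 14.1 and 18.8 CPM in wild-type replicates 1 to 6. The Arf6-null replicates 1 to 6 gave 18.4, 13.4, 14.05, 13.2, 22.4 and 21.1 CPM. All 12 values fall within a narrow band in which wild-type replicate 4 is highest, and 3 Arf6-null tumors lie just under the lowest wild-type one. The means were 19.5 ± 4.74 and 17.1 ± 4.10 CPM (SD, n = 6 each), which is a log2 fold change of -0.19 with an SE of 0.20 (edgeR adjusted p = 0.592). The fewest reads behind any of these values were 366. GENCODE M21 gives it 2 transcripts, which share exons 2 and 3 in whole or in part: 575 of the 1172 exonic bases (49.1%). Because reads were summed over the gene, p16 and ARF transcripts cannot be told apart, and neither can transcripts with and without the floxed exons.

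Cdkn2b was more abundant per kilobase than its neighbor in every tumor. Its level was 336, 231, 251, 283, 176 and 248 CPM in wild-type replicates 1 to 6. For Arf6-null replicates 1 to 6 the values were 306, 177, 158, 269, 339 and 331 CPM. Each genotype contains both low and high tumors, and the ranges overlap, with the lowest and the highest of the 12 values both in Arf6-null tumors. On the log2 scale the difference was 0.05 with an SE of 0.21 (edgeR adjusted p = 0.906), with a 95% interval of 0.751 to 1.43-fold. Per kilobase of exon the ratio of Cdkn2b to Cdkn2a within a tumor was 11.2 ± 1.73 in wild-type and 13.0 ± 2.61 in Arf6-null tumors (SD, n = 6 each; exact permutation p = 0.197, two-sided). The ratio never fell below 8.98 in any of the 12 tumors.

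The protein-coding neighbors of the locus were read as well. Mtap, the methylthioadenosine phosphorylase gene that is often co-deleted with CDKN2A in human tumors, was at 136 ± 30.8 CPM in wild type against 131 ± 40.3 CPM in the Arf6-null group (edgeR adjusted p = 0.903). Dmrta1, a transcription factor gene on the Cdkn2b side, was uneven within each genotype, from 2.98 to 64.5 CPM in wild-type and from 1.35 to 20.6 CPM in the Arf6-null group (edgeR adjusted p = 0.337). Dmrta1 thus varied over 21.6-fold among wild-type tumors, against 1.89-fold for Cdkn2a and 1.91-fold for Cdkn2b in the same libraries.

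Cdkn1a, a CIP/KIP gene at chr17:29090976-29100727, varied over 4.97-fold among wild-type and 2.94-fold among Arf6-null tumors. The p21 transcript stood at 56.5, 227, 45.6, 106, 150.1 and 55.1 CPM in wild-type replicates 1 to 6. Arf6-null replicates 1 to 6 had 179, 155, 151, 264, 230.1 and 90.0 CPM. Wild-type replicates 1, 3 and 6 form the low end, replicate 2 reaches the level of the upper Arf6-null tumors, and all 6 Arf6-null tumors lie above the wild-type median of 81.2 CPM. The means were 107 ± 71.0 and 178 ± 61.8 CPM (SD, n = 6 each), and the log2 fold change of 0.74 (SE 0.41) did not pass (edgeR adjusted p = 0.29; exact permutation of mean log2 CPM, p = 0.0628, two-sided). Without wild-type replicate 2 the log2 fold change was 1.11 (edgeR adjusted p = 0.0862), and with the level of the 4 Y-linked genes, near 0 in 3 wild-type and 1 Arf6-null library, as a covariate it was 0.37 (edgeR adjusted p = 0.659). The 3 muscle-rich wild-type libraries do not share a level of Cdkn1a, and without them the log2 fold change was 0.67 (edgeR adjusted p = 0.565).

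Cdkn1b (chr6:134920401-134925513), which encodes p27, varied over 2.04-fold among wild-type and 1.73-fold among Arf6-null tumors. It was at 49.7, 60.1, 78.4, 71.4, 101 and 86.3 CPM in wild-type replicates 1 to 6. Its level was 70.1, 58.4, 75.4, 51.4, 89.2 and 53.1 CPM in Arf6-null replicates 1 to 6. Every Arf6-null value lies inside the wild-type range, and the log2 fold change came to -0.17 with an SE of 0.19 (edgeR adjusted p = 0.618). Its direction turned to 0.03 without the 3 muscle-rich wild-type libraries.

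**Figure D2:**
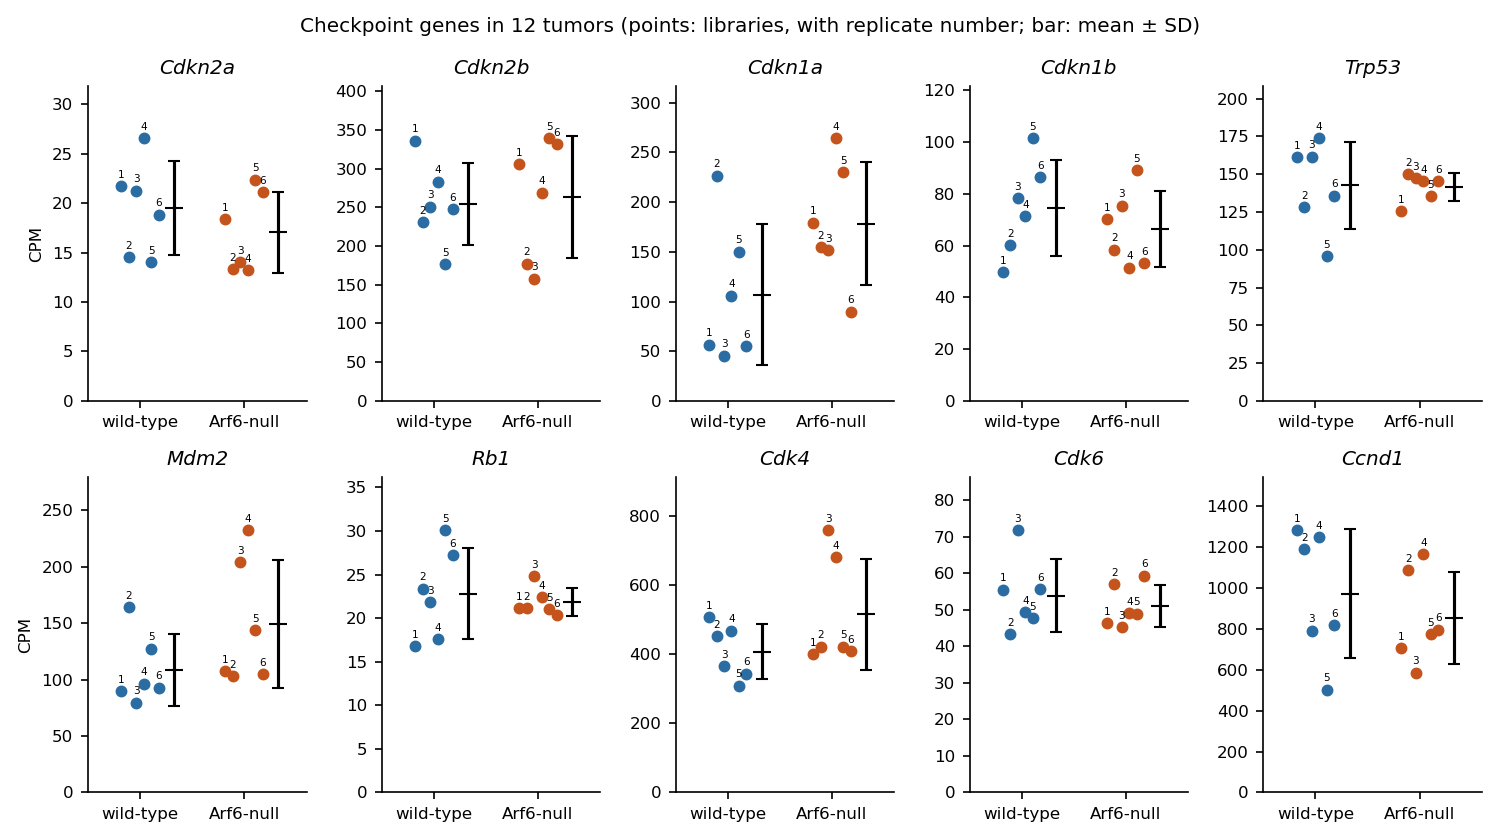
Each panel plots the level of a checkpoint gene in CPM, on an axis that starts at 0, for the 6 wild-type and 6 Arf6-null libraries (points with replicate numbers), with the mean and SD at the side. Cdkn1a spans 45.6 to 264 CPM, whereas Trp53 in Arf6-null tumors stays between 126 and 150.2 CPM.

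In the p53 arm, the mean levels of Trp53 (chr11:69580359-69591873) in the genotypes lay close together. Trp53 was at 161, 128, 162, 174, 95.7 and 136 CPM in wild-type replicates 1 to 6. The Arf6-null replicates 1 to 6 gave 126, 150.2, 148, 145, 135 and 146 CPM. All Arf6-null values lie inside the wild-type range, in which replicate 5 is lowest. The means were 143 ± 28.7 and 142 ± 9.32 CPM (SD, n = 6 each), which is a log2 fold change of -0.01 with an SE of 0.13 (edgeR adjusted p = 0.969). The p53 protein is regulated mainly after translation, and these data hold RNA alone.

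Mdm2, both an inhibitor and a target of p53, was at 89.7, 164, 79.5, 96.3, 128 and 93.0 CPM in wild-type replicates 1 to 6. For Arf6-null replicates 1 to 6 the values were 107, 103, 204, 233, 144 and 105 CPM. Arf6-null replicates 3 and 4 are above every wild-type tumor, the other 4 Arf6-null tumors lie inside the wild-type range, and again all 6 exceed the wild-type median. The means were 108 ± 31.8 and 149 ± 56.4 CPM (SD, n = 6 each), which is a log2 fold change of 0.46 with an SE of 0.25 (edgeR adjusted p = 0.29; exact permutation of mean log2 CPM, p = 0.141, two-sided). It was 0.29 without Arf6-null replicate 4 (edgeR adjusted p = 0.539) and also 0.29 with the Y-linked covariate (edgeR adjusted p = 0.612).

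Cdkn1a and Mdm2 varied together from tumor to tumor. Over 12 libraries Pearson's r of log2 CPM was 0.79 (permutation p = 0.00294, adjusted over 6 pairs of members 0.0176) and Spearman's rho 0.85 (permutation p = 0.00106, adjusted 0.00636). Among the 6 wild-type tumors r was 0.95 (exact permutation p = 0.00278, adjusted 0.0125), and among the 6 Arf6-null tumors it was 0.57 (exact permutation p = 0.235, adjusted 0.469). Without wild-type replicates 3 and 6, the libraries farthest from the median of Cdkn1a, r was 0.72 (permutation p = 0.0194, n = 10). Trp53 and Mdm2 gave no relation past the threshold, with r = -0.26 and rho = -0.55 (permutation p = 0.427 and 0.0706, adjusted 0.512 and 0.106). Their r had opposite signs within wild-type (-0.64) and Arf6-null tumors (0.27), whereas rho was negative in both (-0.60 and -0.31).

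**Figure D3:**
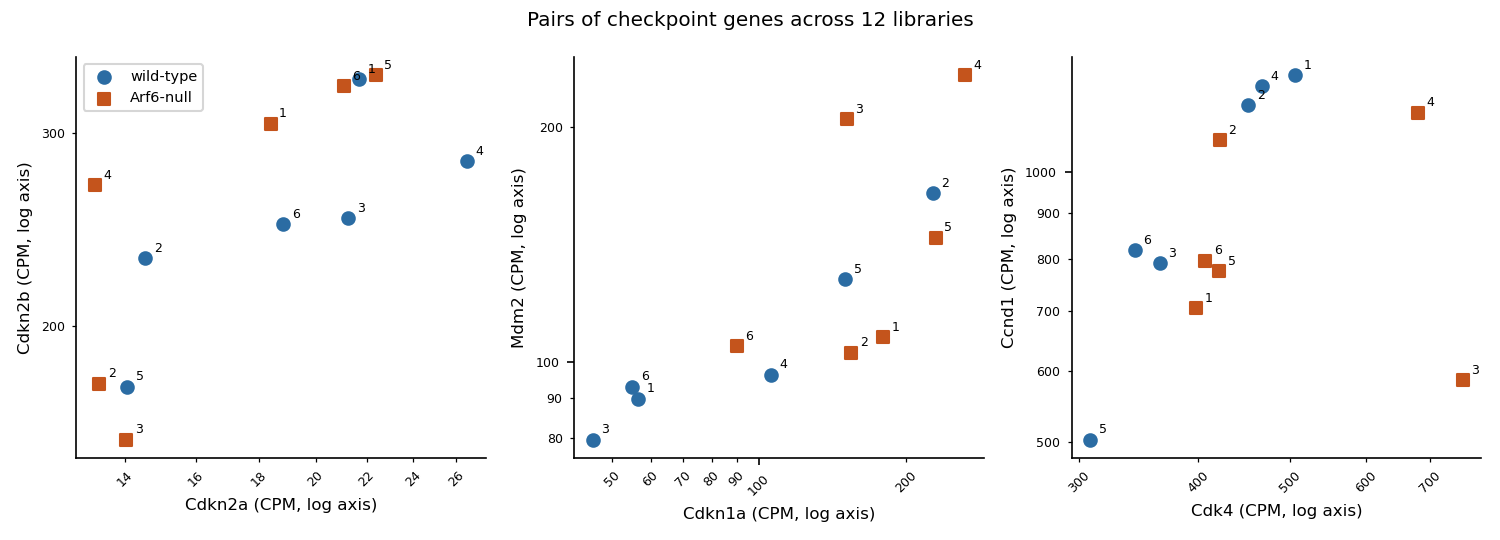
Each panel plots a pair of checkpoint genes in CPM on log axes, circles for wild-type and squares for Arf6-null libraries, with replicate numbers. Cdkn2a with Cdkn2b and Cdkn1a with Mdm2 fall along a rising band, while in the panel of Cdk4 with Ccnd1 the Arf6-null replicates 3 and 4 stand to the right of the others.

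The neighbors Cdkn2a and Cdkn2b also varied together. Pearson's r was 0.73 (permutation p = 0.00799, adjusted over the 6 pairs 0.024) and rho 0.69 (permutation p = 0.0162, adjusted 0.0486). Within wild-type and Arf6-null tumors r was 0.78 and 0.80, with the same sign in both and an exact permutation p of 0.0556 and 0.0694 (adjusted 0.1 and 0.417). Leaving out wild-type replicate 4 and Arf6-null replicate 4, the farthest from the median of Cdkn2a, r was 0.90 (permutation p = 0.0014, n = 10). Cdkn2a and Rb1 were inversely related without passing, with r = -0.61 and rho = -0.64 (permutation p = 0.0347 and 0.029, adjusted 0.0695 and 0.058). Their r was -0.55 without the same 2 libraries and -0.40 on CPM without scaling of library sizes. Whether host cell content bears on these relations was not tested.

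In the RB arm, Rb1 itself (chr14:73183673-73325822) varied over 1.79-fold among wild-type and 1.22-fold among Arf6-null tumors. It was at 16.8, 23.4, 21.8, 17.6, 30.1 and 27.2 CPM in wild-type replicates 1 to 6. Arf6-null replicates 1 to 6 had 21.1, 21.2, 24.8, 22.4, 21.02 and 20.3 CPM. The Arf6-null values sit in the middle of the wild-type range, where replicates 1 and 4 are lowest and 5 and 6 highest. On the log2 scale the difference was -0.07 with an SE of 0.15 (edgeR adjusted p = 0.823).

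Cdk4, a kinase partner of cyclin D1, was at 506, 452, 365, 467, 308 and 343 CPM in wild-type replicates 1 to 6. The Arf6-null replicates 1 to 6 gave 399, 422, 758, 681, 421 and 407 CPM. Arf6-null replicates 3 and 4, the same tumors that led in Mdm2, stand above all others, and the remaining 4 lie within the wild-type range. Cdk4 and Mdm2 are both on chromosome 10, at chr10:127063534-127067920 and chr10:117688875-117710758. Whether their location bears on these levels was not tested. On the log2 scale the difference in Cdk4 was 0.34 with an SE of 0.20 (edgeR adjusted p = 0.331). Without Arf6-null replicate 3 it was 0.20, and with the Y-linked or the muscle score as a covariate 0.17.

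Cdk6 (chr5:3341485-3531008), the other kinase partner of cyclin D1, was at 55.5, 43.4, 71.8, 49.3, 47.6 and 55.6 CPM in wild-type replicates 1 to 6. For Arf6-null replicates 1 to 6 the values were 46.3, 57.1, 45.2, 49.1, 49.0 and 59.4 CPM. Wild-type replicate 3 is the highest tumor, and every Arf6-null value falls inside the wild-type range (log2 fold change -0.08, SE 0.12, edgeR adjusted p = 0.737). Per kilobase of exon, the Cdk4 to Cdk6 ratio was 33.5 ± 9.25 in wild-type and 44.6 ± 17.3 in Arf6-null tumors (SD, n = 6 each; exact permutation p = 0.206, two-sided), and no tumor was below 21.9.

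Ccnd1 (chr7:144929931-144939925), whose cyclin couples ERK signalling to RB phosphorylation, was at 1284, 1189.7, 792, 1247, 503 and 819 CPM in wild-type replicates 1 to 6. Arf6-null replicates 1 to 6 had 705, 1086, 586, 1166, 775 and 797 CPM. Wild-type replicates 1, 2 and 4 form an upper group together with Arf6-null replicates 2 and 4, and wild-type replicate 5 is lowest. The means were 972 ± 315 and 852 ± 226 CPM (SD, n = 6 each), which is a log2 fold change of -0.19 with an SE of 0.24 (edgeR adjusted p = 0.673). Ccnd1 and Cdk4 were related among wild-type tumors (r = 0.96, exact permutation p = 0.00417, adjusted over the 6 pairs 0.0125). Among Arf6-null tumors r was -0.08 (exact permutation p = 0.936), and over all 12 libraries 0.28 (permutation p = 0.385, adjusted 0.512; rho 0.47, permutation p = 0.129, adjusted 0.155). Without Arf6-null replicates 3 and 4, the farthest from the median of Cdk4, r over the other 10 libraries was 0.87 (permutation p = 0.001, adjusted 0.0042). The difference between the genotypes in this relation was not tested. Wild-type replicate 5, the lowest wild-type tumor in both genes, had the highest skeletal muscle sum of the 12 libraries, 4215 CPM. Whether host cell content bears on this relation was not tested. Cdkn1a and Ccnd1 showed no relation that passed (r = -0.03, permutation p = 0.921, and rho = -0.07, permutation p = 0.834, each equal after adjustment).

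Levels of different genes were set side by side per kilobase of exon, in CPM per kilobase averaged over the 12 tumors. Ccnd1 was highest at 194 ± 57.1, followed by Cdkn2b at 186 ± 46.1 and Cdk4 at 142 ± 41.0 (SD, n = 12). Neighbors among these 3 overlapped, and Ccnd1 exceeded Cdkn2b in 6 of 12 tumors. A gap followed, since Cdk4 exceeded Cdkn1a in all 12 without overlap of their ranges. Cdkn1a at 40.1 ± 20.7, Trp53 at 35.1 ± 5.04 and Mdm2 at 25.4 ± 9.57 overlapped in turn. Cdkn2a at 15.6 ± 3.76 and Cdkn1b at 15.5 ± 3.62 overlapped as well, with Cdkn2a the higher of these in 5 of 12 tumors. Mdm2 exceeded Cdkn2a in 9 of 12. Lowest, and separate from Cdkn1b in all 12 tumors, were Cdk6 at 3.75 ± 0.567 and Rb1 at 3.71 ± 0.620. With the length of the longest coding transcript in place of the exon union, Cdk4 came before Cdkn2b, Trp53 before Cdkn1a and Rb1 before Cdk6. The gaps and overlaps given here hold for the exon union and were not examined with transcript length.

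**Figure D4:**
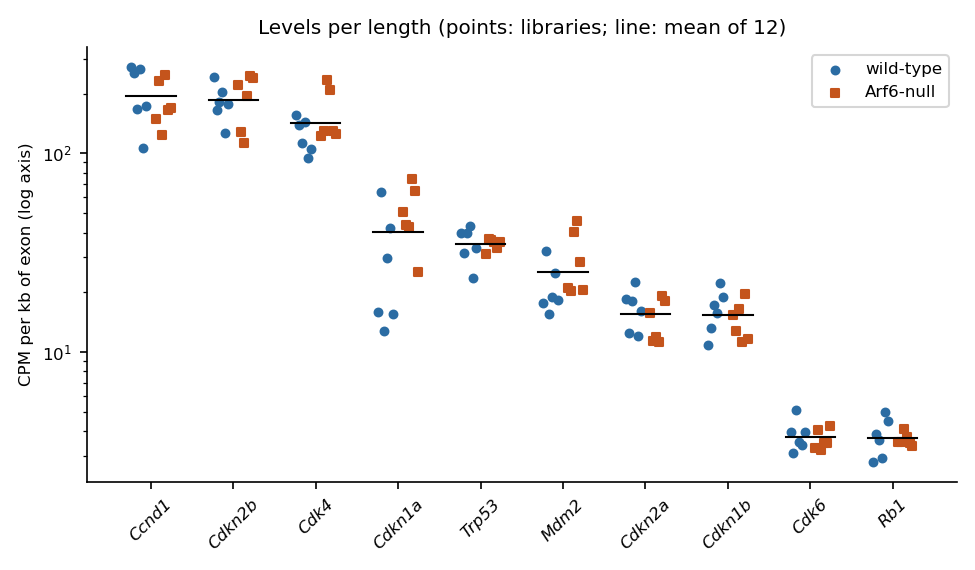
Levels per kilobase of exon on a log axis for the 10 checkpoint genes in order of their mean (lines), circles for wild-type and squares for Arf6-null libraries. The genes from Ccnd1 to Cdk4 and those from Cdk6 to Rb1 are separated from the middle group by gaps.

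The wider pathways were read from lists of related genes. Across the 7 INK4 and CIP/KIP inhibitor genes 0 passed, and the median log2 fold change was -0.17, beside -0.03 over all tested genes. Cdkn2c, which encodes the INK4 protein p18, was at 51.3 ± 6.95 CPM in wild type against 43.7 ± 8.22 CPM in the Arf6-null group (edgeR adjusted p = 0.334). Among 9 G1 cyclin and kinase genes 0 passed (median -0.15). Ccnd2, encoding cyclin D2, was at 118 ± 63.6 and 60.6 ± 24.8 CPM (edgeR adjusted p = 0.176), with all 6 Arf6-null tumors below the wild-type median. In the muscle-rich wild-type replicates 3, 4 and 5 Ccnd2 was at 172, 206 and 76.3 CPM, and its log2 fold change of -0.97 was -0.47 without them (edgeR adjusted p = 0.653).

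Of 13 RB and E2F family genes 0 passed (median -0.04). E2f1, the first of the activating E2F factors, was at 46.1 ± 6.75 CPM in wild type against 59.5 ± 9.86 CPM in Arf6-null tumors, where 4 of 6 were above every wild-type tumor (edgeR adjusted p = 0.122). Rbl2, which encodes the RB relative p130 of resting cells, was at 65.7 ± 12.6 and 52.99 ± 6.69 CPM (edgeR adjusted p = 0.182). Among 30 E2F and cell division target genes 0 passed, with 12 positive and 18 negative values and a median of -0.06. Cdc45 and Mcm2, parts of the replicative helicase, were at 33.8 ± 4.05 and 72.5 ± 15.5 CPM in wild-type and 46.5 ± 14.2 and 96.0 ± 24.1 CPM in the Arf6-null group (edgeR adjusted p = 0.177 and 0.215).

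Among p53 regulators 15 of 17 genes were tested and 0 passed (median -0.07), Trp63 and Trp73 having too few counts. Kat5, which encodes the TIP60 acetyltransferase, was at 49.0 ± 4.95 and 58.0 ± 5.37 CPM (edgeR adjusted p = 0.136). Mdm4, the MDM2 relative that inhibits p53 transcriptional activity, was at 124 ± 26.2 CPM in wild type against 95.5 ± 9.67 CPM in Arf6-null tumors. It was opposite in sign to Mdm2 (log2 fold change -0.38, edgeR adjusted p = 0.138). With each library left out, its edgeR adjusted p ran from 0.0489, without wild-type replicate 2, to 0.257. The fit without wild-type replicate 2 called 766 of all genes, against 186 in the fit of all 12 libraries. Without the muscle-rich libraries the log2 fold change of Mdm4 was -0.21 (edgeR adjusted p = 0.555). Of 33 p53 target genes, Cdkn1a and Mdm2 among them, 22 had positive and 11 negative values, the median was 0.08, and 0 passed. Their nearest to the threshold went in opposite directions. Plk3, a stress-response kinase, was at 54.1 ± 24.3 and 99.1 ± 26.5 CPM (log2 fold change 0.87, edgeR adjusted p = 0.0986). Sesn1, which encodes the mTORC1 inhibitor sestrin 1, was at 50.1 ± 15.6 and 24.5 ± 11.2 CPM (log2 fold change -1.03, edgeR adjusted p = 0.0744). DESeq2 and limma-voom called both of these, with DESeq2 adjusted p of 0.0371 for Plk3 and 0.0147 for Sesn1. Beside them, DESeq2 called 6.64% of all genes with any count and limma-voom 6.14% of all tested genes. Without the muscle-rich libraries the log2 fold change was 0.84 for Plk3 and -0.88 for Sesn1 (edgeR adjusted p = 0.289 and 0.287).

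Regulators of the Cdkn2a locus, mainly Polycomb genes and their antagonists, numbered 17, of which 0 passed (median 0.01). Kdm2b, a Polycomb-associated histone demethylase gene, was at 23.1 ± 3.96 CPM in wild type against 17.2 ± 2.02 CPM in Arf6-null tumors (log2 fold change -0.43, edgeR adjusted p = 0.0912, DESeq2 adjusted p = 0.0262). The log2 fold change of Kdm2b was also -0.43 without the muscle-rich libraries (edgeR adjusted p = 0.227). Tbx2, a T-box repressor of Cdkn2a, was at 55.5 ± 27.1 and 23.4 ± 15.7 CPM (edgeR adjusted p = 0.194), with 2 Arf6-null tumors under the lowest wild-type value. Its log2 fold change of -1.24 was -0.66 without the muscle-rich libraries (edgeR adjusted p = 0.682). Of 11 ubiquitin ligase genes that control p27 and cyclin D1 protein 0 passed (median -0.06). Fbxo4, an F-box protein of cyclin D1 turnover, was at 22.01 ± 3.55 and 27.6 ± 2.06 CPM, and the cullin gene Cul1 at 151 ± 23.6 and 198 ± 36.2 CPM (edgeR adjusted p = 0.13 and 0.139).

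**Figure D5:**
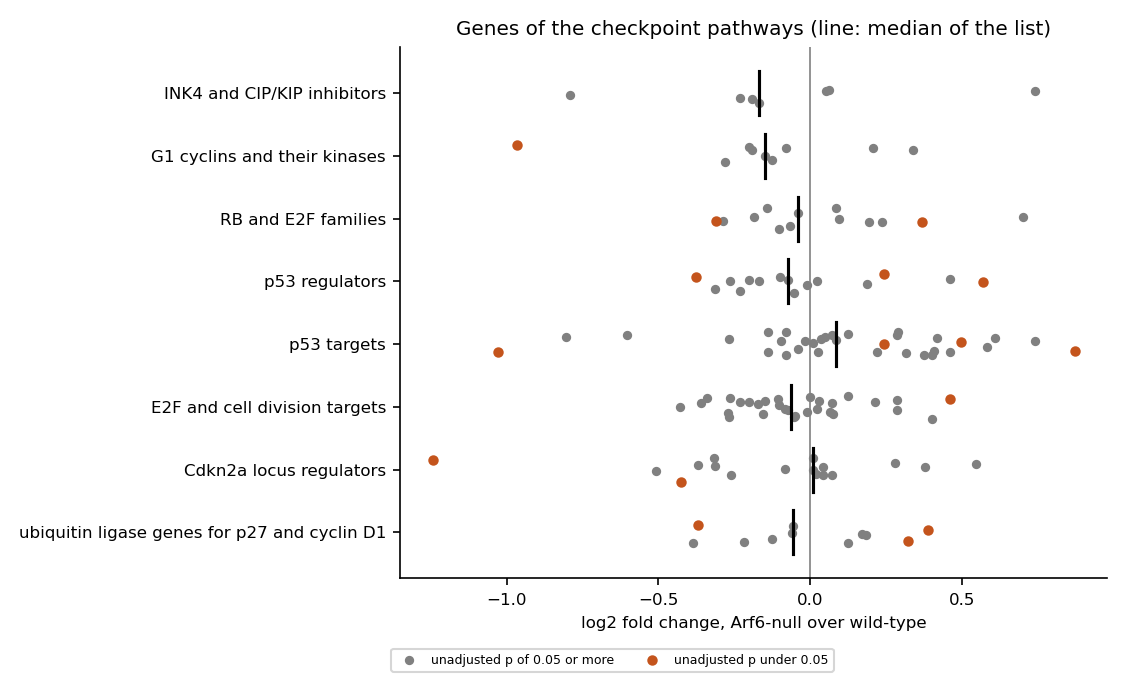
Each point is the log2 fold change of a tested gene, Arf6-null over wild-type, in the list named at the left, coloured where its unadjusted edgeR p is under 0.05, and lines are list medians. The medians lie between -0.17 and 0.08.

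The genes whose log2 CPM followed a member most closely over the 12 libraries are given as a description, since all 16225 tested genes were searched. For Cdkn2a they were Ankrd34a, Cspg4 and Ssbp3, with Pearson's r of 0.90 for each. Cspg4, which encodes the melanoma-associated proteoglycan NG2, had mean levels of 41.5 CPM in wild type against 21.3 CPM in Arf6-null tumors. For Cdkn1a they were Gm13470, Fkbpl and Gm20521, with r of 0.96, 0.94 and 0.93. Those nearest to Ccnd1 were Gm6682, Capn2 and Piezo1, with r of 0.90, 0.90 and 0.89.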

How the data were processed

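RNA of 6 wild-type and 6 Arf6-null tumors was sequenced from TruSeq Stranded mRNA libraries, per the labels' protocols. The authors deposited raw counts of reads per Ensembl gene. Per the submitters' processing notes, the tools were STAR 2.7.3a, featureCounts 1.6.3 and DESeq2 1.26.0, with GRCm38 (mm10). No source used here states the strand setting, the treatment of multi-mapping reads or the annotation release, and without strand an antisense overlap cannot be told apart. Symbols (for 55227 of 55487 identifiers) and coordinates came from GENCODE M21. The 16225 genes kept by filterByExpr were tested by quasi-likelihood in edgeR 4.0.16 (TMM scaling, robust dispersion, R 4.3.3), with Benjamini-Hochberg adjustment over all of them and a threshold of 0.05. CPM uses scaled library sizes and log2 CPM a prior count of 2. Standard errors come from the F statistic. All 66 pairs of libraries differed by more than sampling noise. Permutation tests over 12 or 10 libraries used 100000 resamples. Named genes were the members, Arf6, Mtap and Dmrta1, up to 4 genes past the threshold in each list or otherwise the 2 with the smallest p, and the 3 genes most correlated with Cdkn2a, Cdkn1a and Ccnd1. The members and lists were chosen with earlier results of these data known. Functions were tested on simulated data. Alternatives included DESeq2 1.42.0, limma 3.58.1 (voom), other scalings and filters, covariates, and each library left out.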

Additional observations from a re-analysis of the deposited data

Results flagged for a closer look

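Single libraries that lay far from the other 5 of their genotype were sought in 72 sets of values (named genes, list scores and library totals) and found in 1, where chance alone would mark about 5% of the sets. The Cdkn2a locus regulators had a mean log2 CPM of 5.78 in replicate 5 of the Arf6-null tumors. The remaining Arf6-null libraries lay between 5.34 and 5.47, and the wild-type libraries between 5.43 and 5.72.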

How the results depend on the processing

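No member passed the threshold under any of its 25 alternatives, and the signs of Cdkn2a, Cdkn1a, Mdm2, Cdk4 and Ccnd1 held in all of them. The log2 fold change of the other members lay near 0 and changed sign under some, with the cause not tested. For Cdkn2b it was -0.034 by limma-voom, -0.032 without the 3 muscle-rich wild-type libraries, -0.11 with a muscle covariate, and -0.034 to 0.17 with each library left out. For Cdkn1b it was 0.031 without the muscle-rich libraries and 0.13 with the muscle covariate. For Trp53 it was 0.000313 by DESeq2, 0.024 with no filter, 0.012 without the muscle-rich libraries, 0.0058 with the muscle covariate, 0.028 with a cell division covariate, 0.014 as a difference of mean log2 CPM, and -0.10 to 0.053 with each library left out. For Rb1 it was 0.036 with a Y-linked covariate, 0.021 with the muscle covariate, and -0.14 to 0.031 with each library left out. For Cdk6 it was 0.046 with the Y-linked covariate, 0.000124 without the muscle-rich libraries, 0.081 with the muscle covariate, and -0.13 to 0.021 with each library left out. For the neighbor Mtap it was -0.21 to 0.032 with each library left out.

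The number of all genes past the threshold, 186, was 2215 by DESeq2, 996 by limma-voom, 1359 at an adjusted p under 0.1, 30 with the Y-linked, 20 with the muscle and 120 with the cell division covariate, 35 without the muscle-rich libraries, and 25 (without Arf6-null replicate 1) to 766 (without wild-type replicate 2). Of the 12 libraries left out in turn, Arf6-null replicate 5 alone kept it within 1.5 times of 186, at 154. Among p53 regulators 1 gene passed by DESeq2 (Trp63), and 0 to 1 with each library left out (Mdm4 without wild-type replicate 2). Among p53 targets 2 passed by DESeq2, by limma-voom and at 0.1 (Plk3 and Sesn1), and 0 to 3 with each library left out (Ccng1, Plk3 and Sesn1 without wild-type replicate 2, Sesn1 without Arf6-null replicate 3). Among Cdkn2a locus regulators 1 passed by DESeq2, limma-voom and at 0.1 (Kdm2b). These list counts stand beside those of all genes. DESeq2 called 6.64% of genes with any count, limma-voom 6.14% of tested genes, and 1359 of 16225 passed at 0.1. The median of the E2F and cell division targets was 0.21 with the muscle covariate.

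Pearson's r of Cdkn2a with Cdkn2b was 0.784 within wild-type and 0.797 within Arf6-null tumors, and that of Cdkn1a with Mdm2 0.569 within Arf6-null tumors, each no longer past the threshold. For Cdk4 with Ccnd1 it was 0.959 within wild-type tumors, -0.077 within Arf6-null tumors and 0.874 without the 2 farthest libraries. Within Arf6-null tumors it was 0.325 for Cdkn1a with Ccnd1 and 0.273 for Trp53 with Mdm2. With the longest coding transcript as length, the level per kilobase was 224 CPM for Cdk4, 68.5 for Cdkn1a, 80.3 for Trp53, 41.6 for Mdm2, 20.4 for Cdkn2a, 4.55 for Cdk6 and 4.79 for Rb1. No paired analysis was possible because the labels give no replicate numbers that tumors of the genotypes share. With 6 tumors a genotype, the 95% intervals reach a 1.21-fold higher level for Trp53 and a 3.08-fold higher one for Cdkn1a.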

Other observations

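The following values were chosen after they were seen. Noncoding genes around the INK4 locus also had reads, given here in CPM without regard to length. Gm12606, a lincRNA on the same strand beside the 3' end of Cdkn2a (chr4:89235699-89273403), averaged 109 CPM in wild type against 108 CPM in the Arf6-null group. AL805899.1, within which the microRNA gene Mir31 lies, averaged 42.5 and 47.4 CPM, while Mir31 itself had 0 reads in these mRNA libraries. Wincr1, a lincRNA between Mir31 and Mtap, averaged 10.7 and 17.0 CPM.

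Each checkpoint gene was also set against the mean log2 CPM of the 30 E2F and cell division target genes, 10 relations in all, as an analysis added after the data were seen. Trp53 gave Spearman's rho of 0.78 (permutation p = 0.0045, adjusted over the 10 relations 0.045) and Pearson's r of 0.66 (permutation p = 0.0197, adjusted 0.197). Its r was 0.82 within wild-type and 0.81 within Arf6-null tumors (exact permutation p = 0.0403 and 0.05, adjusted 0.199 and 0.25), and 0.75 without the 2 libraries farthest from its median (permutation p = 0.0127, adjusted 0.127, n = 10), so none of these passed after adjustment. Within Arf6-null tumors rho was 0.60 (exact permutation p = 0.242, adjusted 0.593). No other member passed over all 12 libraries on either measure. Cdkn2a had r of 0.97 with this score within wild-type tumors (exact permutation p = 0.00556, adjusted 0.0556) and of -0.57 within Arf6-null tumors (exact permutation p = 0.254), and the difference was not tested. The spread of Trp53 and Rb1 was smaller in Arf6-null tumors, with SDs of 9.32 and 1.61 CPM against 28.7 and 5.24 CPM in wild type, a difference that was not tested.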
